A study of Arabidopsis thaliana with 4 samples.

Results

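The microRNAs (miRNAs) miR398 and miR408 of Arabidopsis thaliana were measured with 3 probes, named ath-miR398a, ath-miR398b and ath-miR408, out of 213 miRNA probes on each array. The probes were picked by their names, with no threshold on a measured value. The arrays held small-RNA-enriched RNA of whole seedlings, stained with Cy3 in a single colour. Seedlings either expressed ABR17, a cDNA for an abscisic acid-responsive protein, or were wild type (WT), and each genotype was germinated on Murashige and Skoog medium with 100 mM NaCl or with 0 mM NaCl. The growth text gives 2 weeks and also 7 days. The 4 groups are called ABR17_salt, ABR17_control, WT_salt and WT_control and have 1 array each, so no difference between groups has a replicate check and none was tested. The design text speaks of 3 biological replicates, and the sources used here do not say whether an array holds their pooled RNA. They also name neither the promoter that drives ABR17 nor the number of transgenic lines, and the arrays carry no probe for the transgene. In whole seedlings, less of a miRNA per cell and fewer cells that make it cannot be told apart.

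In plants, miR398 and miR408 belong to the copper miRNAs, which the transcription factor SPL7 switches on when copper is scarce. They direct the cleavage of mRNAs for copper proteins that a cell can spare, which leaves copper for the plastocyanin of photosynthesis. The targets of miR398 include the copper/zinc superoxide dismutases CSD1 and CSD2, enzymes that remove superoxide, and the copper chaperone of these enzymes. The targets of miR408 are plantacyanin and several laccases, and miR397 and miR857 also act on laccases.

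The target sequences given for the probes are shown 5′ to 3′ to make clear what each probe can tell apart, with the seed (bases 2 to 8) in capitals.
miR398a: uGUGUUCUcaggucaccccuu
miR398b: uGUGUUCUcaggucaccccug
miR408: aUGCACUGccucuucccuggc

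The miR398 sequences share their seed with each other and with no other probe of the array. They differ by 1 base of 21, the substitution U21G, counted from 1 at the 5′ end with the base of miR398a first. Nothing here shows that the probes separate RNAs that differ at their last base, so their signals are best read as a pair. No other probe has the seed of miR408. The closest sequence of another family lay 8 edits from miR398a, 9 from miR398b and 9 from miR408. In the RefSeq annotation of assembly TAIR10.1 the genes are MIR398a (AT2G03445), MIR398b (AT5G14545) and MIR408 (AT2G47015). A further locus, MIR398c (AT5G14565), has 1 annotated gene between it and MIR398b and is known to give the same mature miRNA, so the miR398b probe reports on both loci.

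Brightness differed between the arrays outside these probes. Blank spots averaged an intensity of 84.8 to 111 on the arrays of ABR17_salt, ABR17_control and WT_salt and 231 on WT_control. The calibration probe PUC2MM read 1176 to 4019 on the same 3 arrays and 11421 on WT_control, whereas the means over the 6 probes for 5S rRNA lay between 36776 and 48763 on all 4. Detection required that 50% or more of the 12 repeat spots of a probe exceeded a threshold, set for each array 3 blank SD above its blank mean. On this basis 30 of the 213 miRNAs were detected on all 4 arrays and 63 on at least 1.

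All 3 probes were detected on every array, with 12 of 12 spots above the threshold in each case. For miR398a the mean spot intensity was 130 ± 5.49 on ABR17_salt, 172 ± 9.18 on ABR17_control, 130 ± 8.37 on WT_salt and 828 ± 146 on WT_control (SD of 12 repeat spots, here and below a measure of the spotting and scan of 1 hybridisation). For miR398b it was 129 ± 5.90 on ABR17_salt, 222 ± 89.6 on ABR17_control, 133 ± 5.86 on WT_salt and 878 ± 43.4 on WT_control. Both miR398 probes were brightest on the untreated wild type. As scanned, their spots on both salt arrays lay below all of their spots on either control array. This holds with the unlike blank levels of the arrays still included. The probe for miR408 read 259 ± 10.9 on ABR17_salt, 237 ± 18.7 on ABR17_control, 239 ± 16.2 on WT_salt and 743 ± 39.2 on WT_control. It too was brightest on WT_control, and its spots on the other 3 arrays overlapped.

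**Figure D1:**
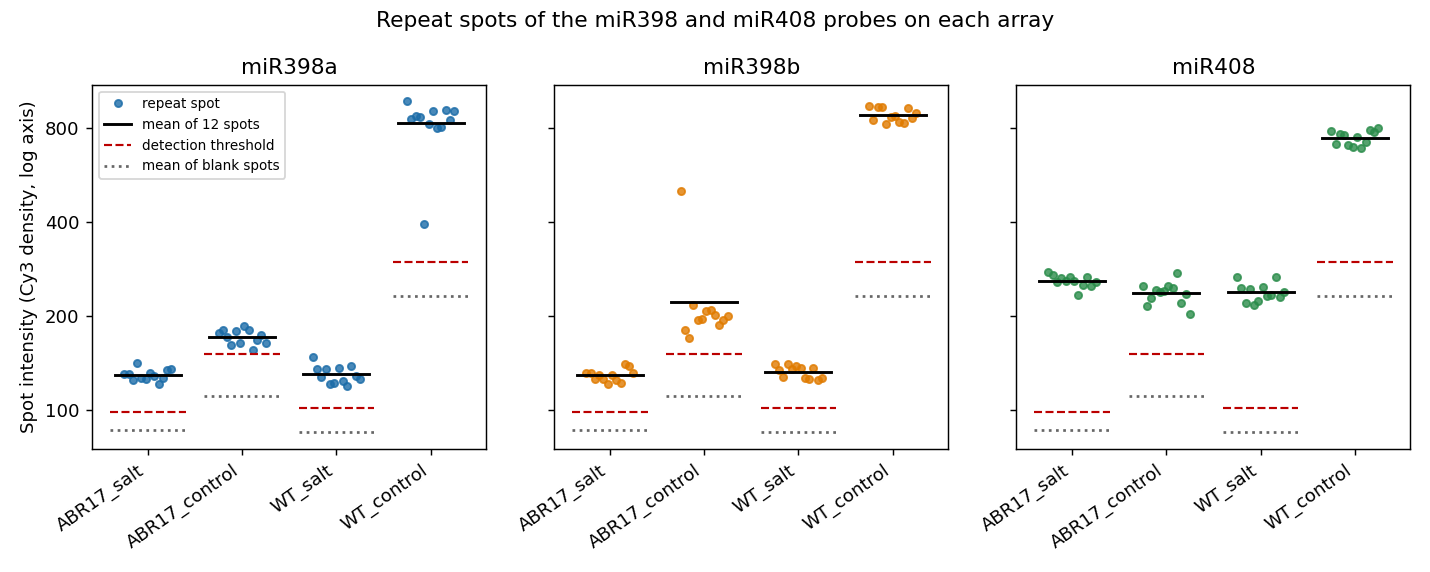
Intensity of the 12 repeat spots of each probe (points) on the 4 arrays, on a log axis, with the mean of the spots, the blank mean and the detection threshold of the array. The miR398 spots of the salt arrays, as scanned, sit at 120 to 147, below those of ABR17_control and far below those of WT_control. Blank levels, which differ between the arrays, are not taken off. A single spot stands apart for miR398a on WT_control (392) and for miR398b on ABR17_control (503).

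Part of this brightness belongs to the array. After subtraction of the blank mean, miR398a kept 43.0 on ABR17_salt, 60.4 on ABR17_control, 45.2 on WT_salt and 597 on WT_control. For miR398b these values were 42.7, 110, 47.9 and 647 in the same order, and for miR408 they were 172, 125, 154 and 512. With the blank means taken off, the miR398a spots of ABR17_control overlapped those of both salt arrays. The lowest miR398a spot on ABR17_control was 156 over a blank mean of 111. The highest were 141 over 86.5 on ABR17_salt and 147 over 84.8 on WT_salt. For miR398b the spots of the salt arrays stayed below those of the control arrays. The wide SD of miR398b on ABR17_control came with a single spot of 503, beside a median spot of 197. That of miR398a on WT_control came with a single spot of 392, beside a median spot of 859.

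Levels were compared after background correction (normexp, which models the background, with an offset of 50), log2 transformation and quantile normalisation over the miRNA probes, which gives all arrays the same distribution of values. The normalisation moves all 12 spots of a probe on an array by the same amount. Position counts and overlap of spots between arrays therefore depend on that amount. The normalised log2 level of miR398b was 6.79 ± 0.08 on ABR17_salt, 7.69 ± 0.47 on ABR17_control, 7.37 ± 0.08 on WT_salt and 8.35 ± 0.09 on WT_control (SD of 12 spots). That of miR398a was 6.86 ± 0.07, 7.55 ± 0.10, 7.29 ± 0.11 and 8.07 ± 0.46 in the same order. From high to low, the order of the arrays was therefore WT_control, ABR17_control, WT_salt and ABR17_salt for both probes. The step between ABR17_control and WT_salt had overlapping spots for either probe (0.26 for miR398a, 0.32 for miR398b), as did the step between WT_control and ABR17_control. Between WT_control and ABR17_control, 11 of 12 positions were lower on ABR17_control for either probe. The exceptions were the single spots of 392 (miR398a, WT_control) and 503 (miR398b, ABR17_control). The lowest array, ABR17_salt, stood clear of WT_salt by 0.42 and 0.58 with no overlap of spots, under this normalisation.

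For miR408 the normalised log2 level was 8.07 ± 0.07 on ABR17_salt, 8.00 ± 0.14 on ABR17_control, 8.61 ± 0.11 on WT_salt and 7.90 ± 0.10 on WT_control. Its order from high to low was WT_salt, ABR17_salt, ABR17_control and WT_control, so under this normalisation the array with the most miR398 had the least miR408. The first step was 0.54 with no overlap of spots, and the other steps, 0.07 and 0.10, were smaller than the spread of the spots. In rank among the 213 probes, miR398b stood at 34 on ABR17_salt, 26 on ABR17_control, 29 on WT_salt and 19 on WT_control, and miR408 at 21, 22, 16 and 24.

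Transgenic plants with and without salt were compared on ABR17_salt and ABR17_control. This pair leaves the bright WT_control array out of the comparison, but not out of the quantile normalisation, which used all 4 arrays. The 2 arrays also differed in PUC2MM, which read 4019 on ABR17_salt and 1176 on ABR17_control. Both miR398 probes were lower with salt, with a log2 difference of −0.90 ± 0.14 (SE of repeat spots) for miR398b and −0.68 ± 0.04 for miR398a. All 12 spot positions were lower for either probe, and the spots of the 2 arrays did not overlap. Among the 30 miRNAs detected on both arrays, the difference of miR398b was the lowest and that of miR398a the third lowest, against a median of 0.00. The difference of miR408 was 0.07 ± 0.04, with overlapping spots. To be counted, a probe had to differ 2-fold or more (a log2 difference of 1) without any overlap between the spots of both arrays. By this rule 0 of the 3 probes were counted, and 1.69% of the 59 miRNAs detected on either array. Under 5 of 10 alternatives at least 1 of the 3 was counted, and under those 5 the share over all such miRNAs was 3.39% to 11.9%. The authors' deposited values, which gave the 11.9%, hold no repeat spots. Here and below, counts from them rest on the 2-fold difference alone, a looser rule.

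The miR398 differences of this pair were negative under all 11 ways of processing that were run. Over these, miR398a differed by −0.34 to −1.41 and miR398b by −0.67 to −1.79. Their places from the bottom ran from 2 to 8 for miR398a and from 1 to 4 for miR398b. In the authors' deposited table, miR398a read 51.5 on ABR17_salt and 96.0 on ABR17_control (−0.90 on the log2 scale), and miR398b read 50.2 and 124 (−1.31). There miR408 read 188 on ABR17_salt and 178 on ABR17_control. Its difference lay between −0.23 and 0.25 over the 11 settings.

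Wild type seedlings with and without salt were compared on WT_salt and WT_control. Here too both miR398 probes were lower with salt, with differences of −0.98 ± 0.03 for miR398b and −0.78 ± 0.14 for miR398a. All 12 spot positions were lower for miR398b and 11 of 12 for miR398a, the exception being the dim spot on WT_control. Their places from the bottom among the 35 miRNAs detected on both arrays were 4 and 5. The difference of miR408 was 0.71 ± 0.04, the fifth highest of the 35. This sign came with the normalisation: as scanned, all miR408 spots on WT_salt (at most 267) were dimmer than those on WT_control (at least 686). None of these differences reached 2-fold, and 8.62% of the 58 miRNAs detected on either array were counted. Under 8 of 10 alternative ways of processing at least 1 of the 3 probes was counted, and under those 8 the share over all such miRNAs was 10.3% to 41.4%.

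The size of the miR398 difference, and the direction of that of miR408, depended here on how the arrays were brought to 1 scale. In intensity above the blank mean, WT_salt kept 7.39% of the WT_control level for miR398b, 7.57% for miR398a and 30.1% for miR408. With no normalisation the log2 differences were −2.75, −2.63 and −1.48 in that order, while the median over the 35 miRNAs was −0.92. Relative to the median of its own setting, the difference of miR398b ran from −2.02 to −0.82 and that of miR398a from −2.10 to −0.64 over the 11 settings. The same measure for miR408 ran from −0.56 to 0.96. In the authors' deposited table, miR398a read 67.3 on WT_salt and 272 on WT_control, miR398b 73.9 and 281, and miR408 246 and 238. The blank spots, PUC2MM and all 3 probes were brightest on WT_control together, and the part of the array's brightness in these differences was not tested.

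**Figure D2:**
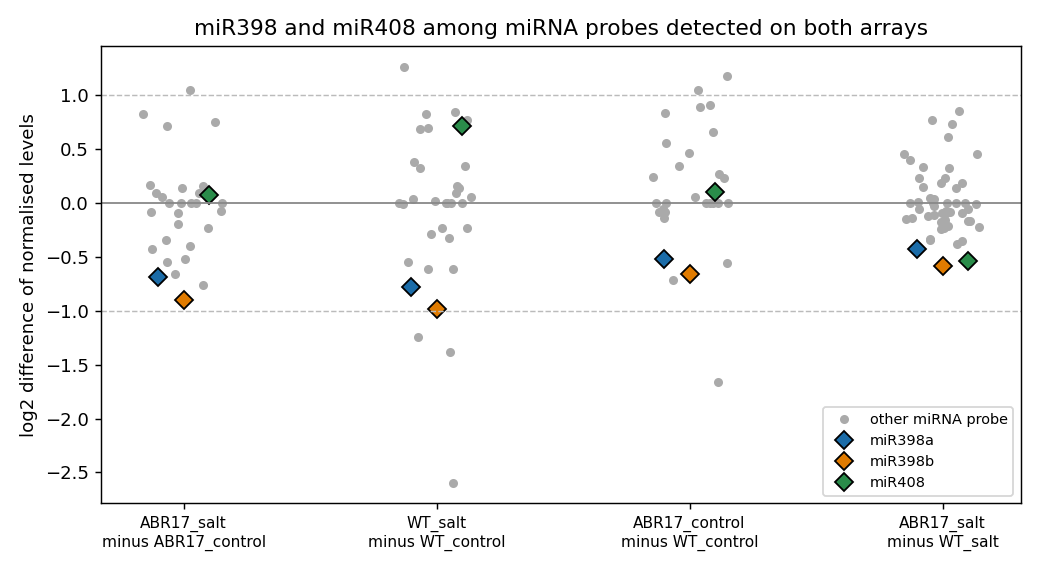
Log2 differences of normalised levels in the 4 comparisons for the miRNA probes detected on both arrays (grey points, spread sideways for view), with miR398a, miR398b and miR408 as coloured diamonds and dashed lines at 2-fold. The miR398 diamonds lie near the bottom of all 4 columns, and miR408 is near the top for salt in the wild type (0.71) and near the bottom for ABR17_salt minus WT_salt (−0.54).

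On medium without salt, transgenic plants were compared with the wild type on ABR17_control and WT_control. The difference was −0.66 ± 0.14 for miR398b, −0.52 ± 0.13 for miR398a and 0.10 ± 0.05 for miR408. The normalised spots of the arrays overlapped for each of the 3 probes, and 11 of 12 positions were lower for either miR398 probe. The exceptions were the single dim spot of miR398a on WT_control and the single bright spot of miR398b on ABR17_control. The differences of miR398b and miR398a had places 3 and 5 from the bottom among 30 miRNAs. None was counted, while 10.3% of the 39 miRNAs detected on either array were. Under 5 of 10 alternatives at least 1 of the 3 was counted, beside 17.9% to 30.8% of all such miRNAs. By the authors' deposited table, miR398a was at 35.3% of its WT_control value on ABR17_control, miR398b at 44.2% and miR408 at 74.5%. The sign of the miR398 differences was negative under all 11 settings (−0.44 to −2.31 for miR398a, −0.56 to −2.09 for miR398b), and that of miR408 was negative under 6 and positive under 5. This comparison shares the WT_control array with that of salt in the wild type, and each of the 4 arrays enters 2 of the comparisons made here.

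On medium with salt the genotypes were compared on ABR17_salt and WT_salt, arrays of like blank level (86.5 and 84.8). Their PUC2MM signals were less alike, at 4019 on ABR17_salt and 1844 on WT_salt. All 3 probes were lower on ABR17_salt after quantile normalisation. The difference was −0.58 ± 0.03 for miR398b, −0.54 ± 0.04 for miR408 and −0.42 ± 0.04 for miR398a. These were the 3 lowest differences of the 51 miRNAs detected on both arrays, whose median was −0.06. This placing depended on the scaling. With no normalisation miR398a, miR398b and miR408 had places 10, 6 and 20 from the bottom, and in the authors' deposited values 7, 2 and 8. After quantile normalisation none of the 3 probes was counted, as was none of the 62 miRNAs detected on either array (0%). Under 1 of 10 alternatives, blank subtraction, 1 of the 3 probes was counted (miR398b at −1.21), beside 6.45% of all such miRNAs. The intensities themselves were close, and the spots as scanned overlapped for each probe. For miR408 the scanned spot was brighter on ABR17_salt at every position. Above the blank mean, ABR17_salt had 95.2% of the WT_salt level for miR398a, 89.2% for miR398b and 112% for miR408. With no normalisation the differences were −0.016, −0.058 and 0.13 in that order, and scaling on the 5S rRNA probes gave 0.056, 0.013 and 0.20. According to the authors' deposited table, the values on ABR17_salt were 76.4%, 67.9% and 76.5% of those on WT_salt.

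**Figure D3:**
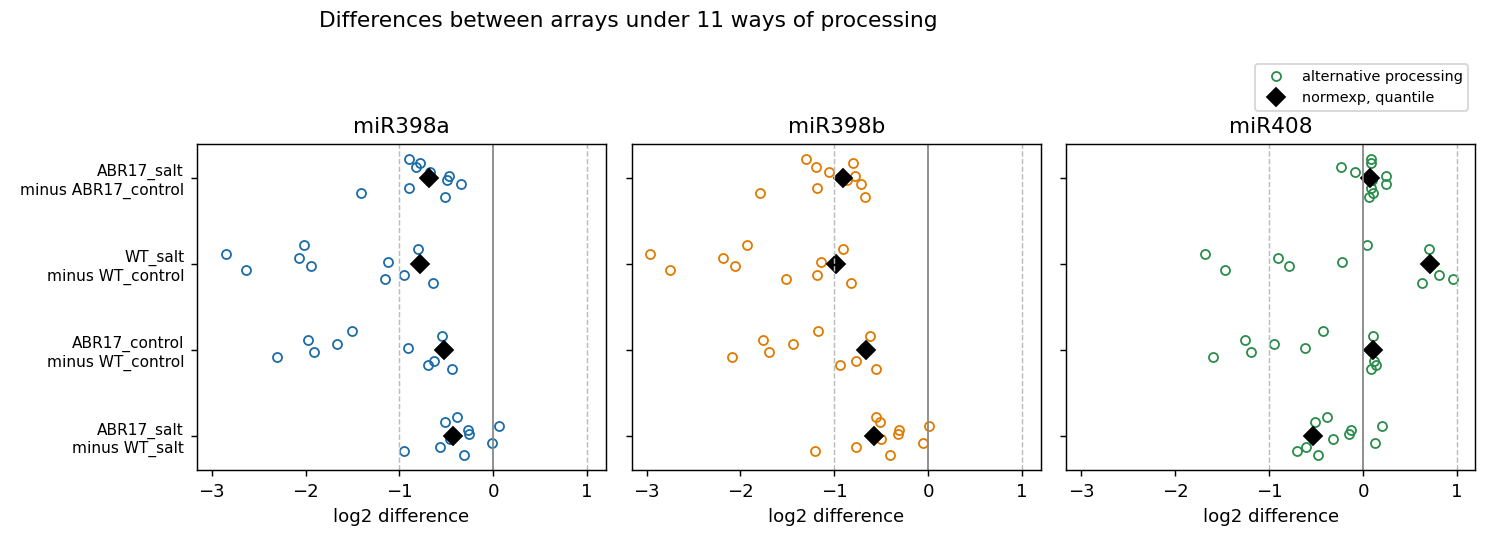
Log2 difference of each probe (panels) in each comparison (rows) under the normexp and quantile processing (black diamonds) and under 10 alternatives (open circles), with dashed lines at 2-fold. The miR398 circles of the upper 3 rows lie below 0 throughout and reach −2.96 for salt in the wild type, whereas those of miR408 in comparisons with WT_control lie on both sides of 0.

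A scaling of whole arrays cannot move the signal of a probe relative to that of another probe on the same array, so the change of miR398 (mean of the log2 levels of both probes) relative to miR408 was followed as well. Before any normalisation between arrays, the log2 ratio of miR398 to miR408 was −1.16 ± 0.09 on ABR17_salt, −0.38 ± 0.28 on ABR17_control, −0.996 ± 0.13 on WT_salt and 0.22 ± 0.25 on WT_control (SD of spots). A ratio within an array also reflects the probes, so only its change between arrays is read. With salt it changed by −0.78 in ABR17 plants and by −1.22 in the wild type, both more than the spread of the spots. These changes were −1.18 and −2.01 in the authors' deposited values. Between the genotypes it differed by −0.60 without salt and by −0.16 with salt, and the second of these was about as large as the spread of the spots (SD 0.15). The ratio was thus lower on either salt array than on its control, which does not show which of the miRNAs changed.

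**Figure D4:**
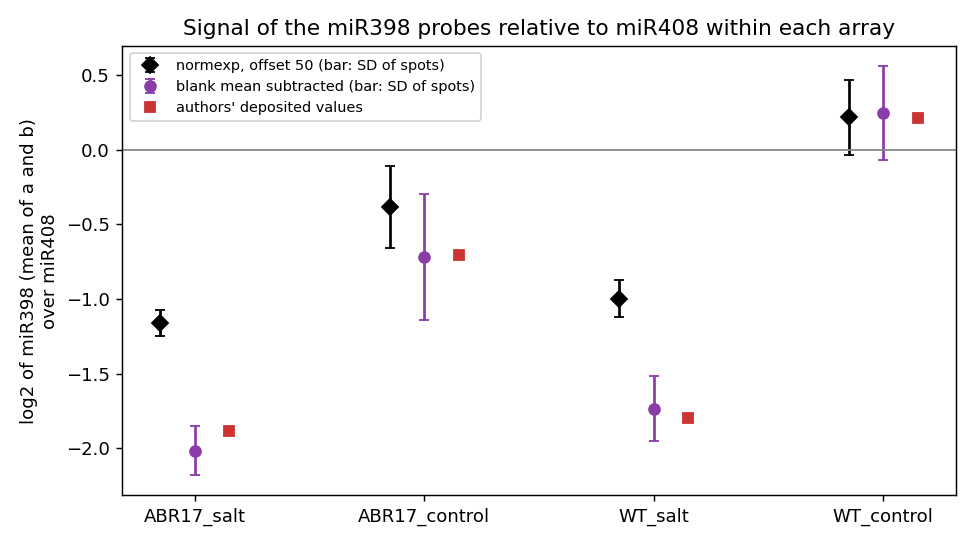
Log2 ratio of the miR398 probes (mean of a and b) to miR408 within each array, from normexp values (black), from intensities minus the blank mean (purple) and from the authors' deposited values (red), with bars for the SD of spots where spots exist. Both salt arrays lie below both control arrays under each of the 3 processings, and WT_control is the array with a ratio above 0.

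The salt responses of the genotypes, set against each other as ABR17 minus WT, differed by 0.10 for miR398a, 0.08 for miR398b and −0.64 for miR408 after quantile normalisation. With 1 array per group there is no error term for these values. They were 1.11, 0.62 and 0.039 in the authors' deposited values, 2.29, 2.03 and 1.72 with no normalisation and 2.03, 1.77 and 1.46 on the 5S rRNA probes. The value of miR408 was positive under 6 of the 10 alternatives. Those of miR398a and miR398b turned to −0.26 and −0.27 with blank subtraction. With an offset of 16 the value of miR398b was −0.0038. These changes of the miR398 values lay within 1 SD of the repeat spots. Neither the size nor the direction of the differences is therefore fixed for any of the probes.

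As the miR398 probes may not separate their targets, their spots are also given side by side. The median spots of miR398a and miR398b were 129 and 129 on ABR17_salt, 173 and 197 on ABR17_control, 128 and 135 on WT_salt and 859 and 869 on WT_control. The level of a probe also reflects the probe itself, so no order between the pair is drawn from these values.

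The rest of the copper list is formed by miR397a (AT4G05105), miR397b (AT4G13555) and miR857 (AT4G13554), whose genes MIR857 and MIR397b are direct neighbours in the annotation. None of these 3 probes was detected on any array, so 3 of the 6 copper probes were measurable and no difference is given for the others. The probe with the most spots above the threshold was miR397a on WT_salt, with 4 of 12 at a mean of 97.7 against a threshold of 101. On WT_control miR397a read 259 ± 16.1, miR397b 250 ± 31.0 and miR857 226 ± 12.2, where the threshold was 298.

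The miRNAs most like miR398 in their profile over the 4 arrays were sought among the 27 other probes detected on all of them, by the root mean square distance between normalised log2 levels, each centred on its own mean. The closest were miR157d, which targets SPL factors of phase change (distance 0.38), miR165a, which targets class III HD-ZIP factors of leaf polarity (0.46), and miR319a, which targets TCP factors (0.48). These distances were not far under the median of the 27 (0.55), so no other probe followed miR398 closely. With salt, miR157d differed by −0.40 in ABR17 plants and −0.014 in the wild type after quantile normalisation, and by −0.088 and −0.77 with no normalisation. Those most like miR408 were miR160a, which targets auxin response factors (0.15), miR390a, which triggers trans-acting siRNAs (0.17), and miR156a, which targets SPL factors (0.22), against a median of 0.31. After quantile normalisation miR390a differed by 0.68 between WT_salt and WT_control, and with no normalisation by −1.41, so its direction turned with the scaling as that of miR408 did.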

How the data were processed

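Each array file lists 3968 spots, 12 for each of 213 miRNA probes. Per the file headers, the authors deposited a mean and an SD of the density of every spot. The mean is a linear Cy3 intensity from which no background was taken, and the SD was not used. Per the labels' protocols, 0.5 µg of total RNA received a 3' adapter that captures the dye. The sources used here name no scanner or image software. The authors also deposited 1 processed intensity per miRNA and array. Its log2 values correlated at r = 0.987 to 0.999 with those of the blank-subtracted spots over detected miRNAs, and its medians were 9.38 (ABR17_salt), 11.2 (ABR17_control), 10.3 (WT_salt) and 12.6 (WT_control). It was therefore treated as linear and uncentred, though a correlation of log2 values cannot show that the scale is linear. Its background correction and scaling between arrays stay unknown.

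Spot intensities were corrected with normexp in limma 3.58.1 (R 4.3.3, offset 50), and the log2 values were averaged per probe before quantile normalisation of the 213 miRNA probes. The offset draws differences of dim probes towards 0, and quantile normalisation turns differences into steps between ranks. No test between groups was possible. The number of arrays limits the precision, and SD and SE of spots cover 1 hybridisation. The processing alternatives are given at the end. The named miRNAs are the members, the probes for miR397 and miR857, and the 3 probes most like miR398 and miR408. The members and lists were chosen with earlier results of these data known.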

Additional observations from a re-analysis of the deposited data

Results flagged for a closer look

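The transgene difference of miR408 went opposite ways in the 2 media after quantile normalisation. It was −0.54 on the log2 scale with salt (ABR17_salt minus WT_salt) and 0.10 without salt (ABR17_control minus WT_control), which leaves −0.64 between them. The value without salt was smaller than the spread of the repeat spots (SD 0.17). Each value rests on 1 array per group, and the difference was not tested. In the authors' deposited values the same differences were −0.39 with salt and −0.43 without, so they ran the same way there. The −0.64 itself turned positive under 6 of the 10 alternatives: it was 1.72 with no normalisation, 0.88 on the 75th percentile, 0.47 with cyclic loess, 0.82 on the calibration probes, 1.46 on the 5S rRNA probes and 0.039 in the deposited values.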

How the results depend on the processing

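The alternatives changed the background correction (none, subtraction of the blank mean, an offset of 16), the scaling between arrays (none, the 75th percentile, cyclic loess, the 3P calibration probes, the 5S rRNA probes), the summary of spots (their median) or the values used (the authors' deposited values). Changes of a difference within 1 SD of the repeat spots are not listed, and the cause of those listed was not tested. No paired analysis was possible because each group has 1 array. For the same reason no array could be left out of a group, and all alternatives use the same WT_control array. Brightness over the blank spots limited detection: at 6 blank SD miR398a was detected on 3 arrays in place of 4 (not on ABR17_control), and the other 2 probes on all 4.

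For salt in ABR17 plants (ABR17_salt minus ABR17_control), miR398a differed by −0.68. This became −0.51 with no background correction, −1.41 with blank subtraction and −0.90 with an offset of 16. It was −0.34 with no normalisation, −0.49 on the 75th percentile, −0.47 with cyclic loess, −0.82 on the 5S rRNA probes and −0.90 in the deposited values. The difference of miR398b (−0.90) became −1.79 with blank subtraction. That of miR408 (0.07) was 0.25 with no normalisation and 0.24 with cyclic loess, and it turned to −0.090 on the calibration probes and −0.23 on the 5S rRNA probes.

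For salt in the wild type (WT_salt minus WT_control), miR398a (−0.78) reached −2.63 with no normalisation, −1.94 on the 75th percentile, −2.07 on the calibration probes, −2.85 on the 5S rRNA probes and −2.01 in the deposited values. The difference of miR398b (−0.98) was −0.82 with no background correction, −1.52 with blank subtraction, −1.18 with an offset of 16 and −1.14 with cyclic loess. It reached −2.75 with no normalisation, −2.06 on the 75th percentile, −2.18 on the calibration probes, −2.96 on the 5S rRNA probes and −1.92 in the deposited values. That of miR408 (0.71) was 0.96 with blank subtraction and 0.044 in the deposited values. It turned to −1.48 with no normalisation, −0.78 on the 75th percentile, −0.22 with cyclic loess, −0.91 on the calibration probes and −1.69 on the 5S rRNA probes.

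For the transgene without salt (ABR17_control minus WT_control), 5 alternatives moved all 3 probes. With no normalisation miR398a (−0.52), miR398b (−0.66) and miR408 (0.10) differed by −2.31, −2.09 and −1.59. On the 75th percentile they differed by −1.91, −1.69 and −1.20, and on the calibration probes by −1.66, −1.44 and −0.95. On the 5S rRNA probes the values were −1.97, −1.75 and −1.26, and in the deposited values −1.50, −1.18 and −0.43. Cyclic loess gave −0.61 for miR408.

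For the transgene with salt (ABR17_salt minus WT_salt), blank subtraction moved miR398a (−0.42), miR398b (−0.58) and miR408 (−0.54) to −0.95, −1.21 and −0.71. An offset of 16 gave −0.57 and −0.77 for the miR398 probes. No normalisation gave −0.016, −0.058 and 0.13 for the 3 probes, cyclic loess −0.26, −0.32 and −0.15, the calibration probes −0.27, −0.31 and −0.13, and the 5S rRNA probes 0.056, 0.013 and 0.20. For miR398b the value was −0.41 with no background correction. For miR408 it was −0.31 on the 75th percentile and −0.39 in the deposited values.

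The difference between the salt responses of the genotypes (ABR17 minus WT) was 0.10 for miR398a, 0.08 for miR398b and −0.64 for miR408. It became 2.29, 2.03 and 1.72 with no normalisation, 1.45, 1.19 and 0.88 on the 75th percentile, 1.39, 1.13 and 0.82 on the calibration probes, and 2.03, 1.77 and 1.46 on the 5S rRNA probes. In the deposited values it was 1.11, 0.62 and 0.039. Cyclic loess gave 0.65 for miR398a and 0.47 for miR408. The change of miR398 relative to miR408 with salt was −0.78 in ABR17 plants and −1.22 in the wild type. With blank subtraction it was −1.30 and −1.98, and in the deposited values −1.18 and −2.01, both alternatives chosen after seeing the data.

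The number of miRNAs counted among all probes for salt in ABR17 plants was 1 (higher). It was 0 with no background correction and with detection at 6 blank SD, 2 with an offset of 16, on the 75th percentile (1 higher, 1 lower) and with no filter on dim probes, 4 with blank subtraction and on the calibration probes (all lower in the second case), 5 on the 5S rRNA probes (all lower) and 7 in the deposited values (3 higher, 4 lower). For salt in the wild type the number was 5 (2 higher, 3 lower). It was 3 with no background correction and with detection at 6 blank SD, 6 with an offset of 16 and 7 with cyclic loess. Blank subtraction gave 10 and the deposited values 16 (4 higher, 12 lower). All lower were the 17 with no normalisation, 11 on the 75th percentile, 11 on the calibration probes and 24 on the 5S rRNA probes. For the transgene without salt it was 4 (2 higher, 2 lower). It was 2 with no background correction, 3 with the median of spots, 5 with no filter on dim probes and 6 with cyclic loess. Blank subtraction and an offset of 16 gave 7 each, and the deposited values 11 (5 higher, 6 lower). All lower were the 12 with no normalisation, 9 on the 75th percentile, 7 on the calibration probes and 9 on the 5S rRNA probes. For the transgene with salt it was 0. It was 4 with blank subtraction, 2 with an offset of 16, 3 with no normalisation, 3 on the 5S rRNA probes and 6 in the deposited values. All counts from the deposited values used the looser rule without spots.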
